A study of Arabidopsis thaliana with 12 samples.

Results

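The response of mapkkk5 seedlings to chitin was described here from 6 RNA sequencing libraries, 3 labelled chitin and 3 labelled mock, out of 12 in the series. The 6 were chosen by genotype and treatment label, and no measured value entered the choice. Seedlings of Arabidopsis thaliana, the thale cress, were germinated in MGRL medium, a plant nutrient solution, with 0.2% agarose and 1% sucrose. They grew for 8 days under 16 h of light at 22 °C and 8 h of dark at 20 °C, spent 3 h in liquid MGRL medium, and then received mock or chitin treatment for 3 h. The design text names the line mapkkk5-1 and the sample labels call it mapkkk5. It is 1 mutant line, so the line and the mutation cannot be told apart. For the chitin dose the design text has 40 mM, whereas the protocol of treatment has 40 µM, and the labels do not settle which holds. The 6 libraries of the wild type Col-0 (Col), grown and treated in the same way, entered the model for its estimate of spread and the test of the difference between genotypes. Each group of 3 libraries came from 3 independent experiments, per the design text, and values are given below in the order of experiments 1, 2 and 3.

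Chitin is a polymer of fungal cell walls that plants read as a sign of infection. In Arabidopsis it is bound at the cell surface by receptor kinases with LysM domains, chiefly LYK5 with CERK1, which act through cytoplasmic kinases such as PBL27 and BIK1. These lead to a calcium influx, an oxidative burst and the phosphorylation of MAP kinases, with MAPKKK5 known as an entry kinase of the cascade to MPK3 and MPK6 and another cascade leading to MPK4. The transcriptional output includes WRKY and ERF transcription factors, salicylic acid signalling and the tryptophan-derived defence compounds camalexin and indole glucosinolates, while growth genes are often lowered.

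The 6 libraries held 16023616 to 18695142 counted reads, so that a count of 0 allows a level of up to 3 reads, which was 0.159 to 0.187 CPM (counts scaled to a common library size). This limit covers counting error only. Of the 32678 listed genes, 20994 passed an expression filter and were tested. Seed storage transcripts differed between libraries without regard to treatment, with a summed level of 30.8, 0.764 and 76.1 CPM in mock and 0.213, 21.0 and 81.2 CPM with chitin, and none of the 5 tested members was called. The libraries hold whole seedlings, so fewer cells of a type and less RNA per cell cannot be told apart. Of 7 reference genes of qPCR 2 rose (UBQ10, 0.39 ± 0.10, and AT4G34270, 0.25 ± 0.09) and 1 fell (AT5G60390, -0.46 ± 0.12) on the log2 scale, and with upper-quartile scaling 1 of the rises was not called. The other 4 were not called, with 0.011 ± 0.15 for ACT2, 0.017 ± 0.11 for ACT8, 0.013 ± 0.12 for PP2AA3 and 0.17 ± 0.10 for PEX4 (fitted value ± standard error, SE, throughout), and the first 3 of these turned negative with upper-quartile scaling. The raised and lowered shares of the 7, 28.6 and 14.3%, stand against 19.1 and 15.7% of all tested genes.

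MAPKKK5 (AT5G66850), the gene after which the line is named, was read in all 6 libraries. The mock libraries labelled mapkkk5 held 70, 97 and 61 reads of it, and the chitin libraries 503, 583 and 237. Scaled to library size this was 4.33 ± 0.831 CPM in mock and 24.4 ± 9.85 CPM with chitin (mean ± SD, n = 3), against 25.2 ± 3.19 CPM in Col mock and 40.9 ± 3.96 CPM in Col with chitin. The mock level was thus below that of every Col library, and the level after chitin overlapped that of untreated Col. The gene rose within the line by a log2 fold change of 2.49 ± 0.27 (edgeR adjusted p = 1.30e-05), with log2 ratios of 2.74, 2.61 and 1.80 in the 3 experiments. Counts per gene do not show which part of the transcript the reads came from, and no label gives the position of the lesion. The 250 bases before the start of MAPKKK5 (chr5:26699427-26699676, minus strand, TAIR10.1) are shown because the gene itself rose with chitin. Capitals mark its W-boxes, the TTGACC or TTGACT element (GGTCAA or AGTCAA on the other strand) that WRKY factors are known to bind.
MAPKKK5: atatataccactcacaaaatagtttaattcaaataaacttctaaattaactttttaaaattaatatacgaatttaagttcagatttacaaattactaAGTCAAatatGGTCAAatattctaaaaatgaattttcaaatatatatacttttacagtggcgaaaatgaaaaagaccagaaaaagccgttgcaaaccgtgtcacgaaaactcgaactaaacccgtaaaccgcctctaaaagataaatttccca

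**Figure D1:**
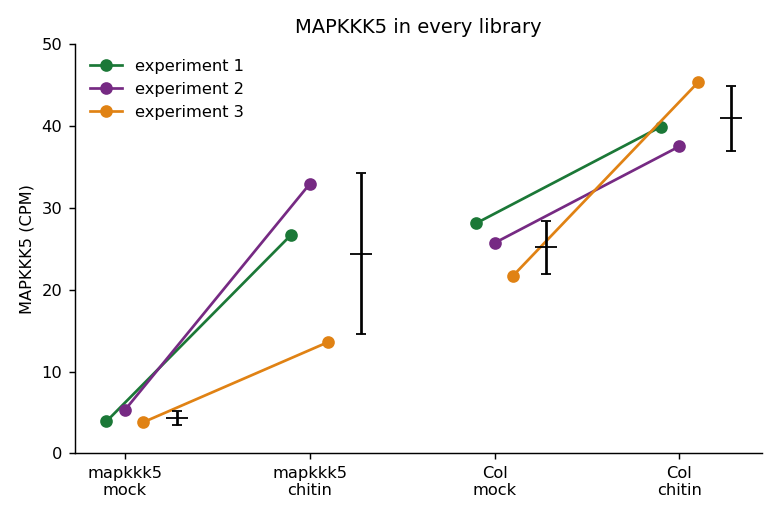
CPM of MAPKKK5 on the vertical axis in each of the 12 libraries, by group. Lines join the mock and chitin libraries of 1 experiment, and the horizontal marks with bars are group means ± SD (n = 3). The 3 mapkkk5 mock libraries lie between 3.81 and 5.29 CPM and the 3 mapkkk5 chitin libraries between 13.6 and 32.9 CPM.

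The response of the line as a whole was broad. At an adjusted p below 0.05 (edgeR quasi-likelihood test, Benjamini-Hochberg adjustment), chitin changed 7308 of the 20994 genes, or 34.8%. Of these, 4019 rose (19.1%) and 3289 fell (15.7%), and the median log2 fold change over all genes was -0.004. With upper-quartile scaling the split changed from 55.0% to 43.5% of calls being rises, so the balance between small rises and small falls depends on the scaling. With the experiments as a block 9896 genes (47.1%) were called, and with DESeq2 7486 (35.7%). The large changes were mostly rises. At least 2-fold changes among called genes comprised 1387 rises (6.61% of tested genes) and 501 falls (2.39%), at least 8-fold changes 245 rises and 6 falls, and at least 32-fold changes 65 rises and 0 falls. The 1387 raised genes held 2.99, 2.77 and 2.90% of the reads in mock and 9.22, 9.08 and 11.2% with chitin. The 501 lowered genes went from 2.42, 2.42 and 3.05% to 1.02, 0.963 and 1.19%. Of the genes changed at least 2-fold, 1384 of the raised and 498 of the lowered kept their sign in each of the 3 experiments. These genes were chosen from the same libraries, so this agreement was in large part built in. Without experiment 1, 2 or 3 the called falls of any size numbered 1997, 1913 and 1927 against 3289. The called rises of any size numbered 2908, 2924 and 2835 against 4019.

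**Figure D2:**
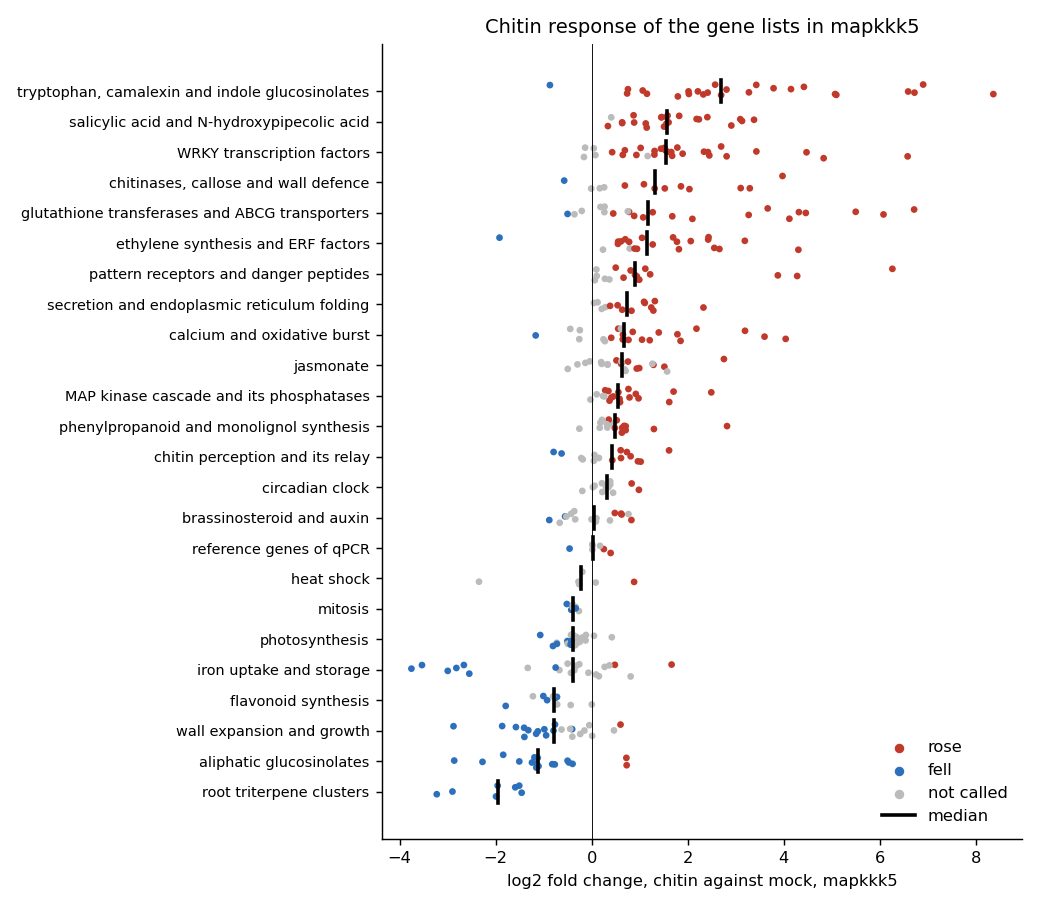
Log2 fold change of chitin against mock in mapkkk5 on the horizontal axis, 1 point per tested gene, for each list of genes on the vertical axis. Red points rose, blue points fell, grey points were not called, and black marks are list medians. The medians run from -1.96 for the root triterpene clusters to 2.69 for tryptophan, camalexin and indole glucosinolates.

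Transcripts for the surface perception of chitin were raised in part. Of the 15 tested genes of chitin perception and its relay, 8 rose and 2 fell, with a median log2 fold change of 0.43. The raised share was 53.3%, against 19.1% of all tested genes. The lowered share, 13.3%, was near the 15.7% of all tested genes. LYK4, a LysM receptor kinase that acts with LYK5, showed the largest rise of the list, from 11.0, 9.33 and 10.4 CPM in mock to 30.1, 24.9 and 38.7 CPM with chitin. Every chitin library was above every mock library for it, with a log2 fold change of 1.61 ± 0.17 (edgeR adjusted p = 1.15e-05). LYM2, a LysM protein of the plasmodesmata needed for their closure by chitin, rose by 1.02 ± 0.11, LYK5 by 0.96 ± 0.18 and CERK1 by 0.81 ± 0.14 on the log2 scale. The members that fell were LYM1 (-0.80 ± 0.13) and LYM3 (-0.63 ± 0.15), which are known to bind bacterial peptidoglycan. Among the relay kinases BIK1 rose by 0.61 ± 0.11, whereas PBL27, the kinase known to phosphorylate MAPKKK5, had a log2 fold change of 0.044 ± 0.13 and was not called. LIK1, a kinase that interacts with CERK1, rose by 0.43 ± 0.11. IOS1, a malectin-like receptor kinase, rose by 0.73 ± 0.15, and PUB13, a ubiquitin ligase of receptor turnover, by 0.60 ± 0.10.

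Receptors for other patterns and danger peptide precursors rose too. Of 17 tested genes 12 rose and 0 fell (70.6 and 0%, against 19.1 and 15.7% of all tested genes), with a median of 0.90. The co-receptor BAK1, a partner of many leucine-rich repeat receptors, rose by 0.90 ± 0.10, and its close relative SERK4 by 1.22 ± 0.16. SOBIR1, the co-receptor of receptor-like proteins, rose by 1.11 ± 0.14, and its partner RLP23, which senses a peptide of NLP toxins, by 0.94 ± 0.23. The flagellin receptor FLS2 was not called (0.37 ± 0.16, but adjusted p = 0.0194 under the block of experiments), and EFR, the receptor for bacterial EF-Tu, rose by 0.66 ± 0.22. PROPEP3, a precursor of Pep danger peptides, went from 1.39, 1.85 and 1.56 CPM in mock to 24.4, 32.3 and 37.1 CPM with chitin, a log2 fold change of 4.28 ± 0.22. PROPEP2 rose by 3.87 ± 0.29, whereas PROPEP1 (0.27 ± 0.25) and the Pep receptors PEPR1 (0.063 ± 0.09) and PEPR2 (0.096 ± 0.19) were not called. AT4G28460 (PREPIP1), a danger peptide precursor, showed the largest change of the list at 6.26 ± 0.45. Its log2 ratio also varied most between experiments, from 4.52 through 5.84 to 7.58. This ranking covers called genes changed at least 2-fold with mean log2 CPM 1 or more.

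In the MAP kinase cascade and its phosphatases, 15 of 19 tested genes rose and 0 fell, with a median of 0.55. These shares, 78.9 and 0%, stand against 19.1 and 15.7% of all tested genes. Most of the rises were below 2-fold. MKK9, a MAP kinase kinase linked to ethylene and camalexin, rose from 16.5, 12.4 and 14.5 CPM to 51.1, 42.3 and 48.0 CPM, a log2 fold change of 1.70 ± 0.14. MPK11, the close relative of MPK4, rose by 1.61 ± 0.28. The 3 MAP kinases known to be phosphorylated after chitin rose by 0.92 ± 0.16 (MPK3), 0.41 ± 0.10 (MPK4) and 0.55 ± 0.11 (MPK6). At the top of the cascade MEKK3 rose by 0.97 ± 0.09 and MAPKKK3 (listed as MAP3KA), which acts in parallel with MAPKKK5, by 0.45 ± 0.09. MEKK1 rose by 0.28 ± 0.10, but DESeq2 did not call it (adjusted p = 0.0582). YDA, known for its part in stomatal development, was not called (-0.028 ± 0.12). Of the kinases below MAPKKK5, MKK4 rose by 0.35 ± 0.13 with groups that overlapped, but DESeq2 did not call it (adjusted p = 0.0527). MKK5 was not called (0.10 ± 0.11). MKP1, a phosphatase that holds back MPK3 and MPK6, rose by 0.79 ± 0.12.

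Genes of calcium signalling and the oxidative burst rose in 16 of 23 cases and fell in 1, with a median of 0.68. These shares, 69.6 and 4.35%, stand against 19.1 and 15.7% of all tested genes. ACA12, a plasma membrane calcium pump, went from 11.2, 7.20 and 9.68 CPM in mock to 113, 109 and 118 CPM with chitin, which is a log2 fold change of 3.60 ± 0.18. The calmodulin-like gene CML37 rose by 4.04 ± 0.37, CML42 by 2.18 ± 0.18 and TCH3, a touch-induced calmodulin-like gene, by 1.85 ± 0.16. RBOHD, the NADPH oxidase of the burst, rose by 0.85 ± 0.13 and its activating kinase CPK5 by 0.55 ± 0.09. The channel subunits CNGC2 (-0.25 ± 0.17) and CNGC4 (-0.45 ± 0.21) were not called, although CNGC4 passed with the experiments as a block (adjusted p = 0.00172). CML39 fell by 1.17 ± 0.41 on the log2 scale from a mean of 1.06 CPM, and this call was lost without any of 4 of the 6 libraries and with DESeq2. With the experiments as a block 3 members fell.

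Transcription factors of the WRKY list rose in 24 of 29 cases and fell in 0, with 20 of the rises at least 2-fold. Their median was 1.54, and the shares of 82.8 and 0% stand against 19.1 and 15.7% of all tested genes. WRKY33, the activator of camalexin synthesis that MPK3 and MPK6 phosphorylate, went from 32.6, 26.2 and 30.6 CPM to 135, 154 and 199 CPM. Its groups were far apart in every experiment, and its log2 fold change was 2.45 ± 0.15 (edgeR adjusted p = 6.68e-08). WRKY75 rose by 4.83 ± 0.35, WRKY45 by 3.43 ± 0.21, WRKY28, an activator of salicylic acid synthesis, by 2.81 ± 0.25, and WRKY40, a repressor that acts with WRKY18 and WRKY60, by 2.34 ± 0.16. WRKY55 had the largest fitted value, but its mock level rested on 4 reads in all. WRKY22 (-0.16 ± 0.26), which earlier models placed with WRKY29 below the flagellin MAP kinase cascade, was not called, whereas WRKY29 rose by 0.69 ± 0.16. WRKY11 (0.075 ± 0.17) and WRKY17 (-0.14 ± 0.12), known as repressors of basal resistance, and WRKY48 (0.042 ± 0.24) were not called either. WRKY30 varied from 0.09 through 1.21 to 2.11 between experiments and passed with the experiments as a block alone (adjusted p = 0.0302 against 0.0596).

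W-boxes were commoner before raised genes, and the more so the larger the rise. Over 27443 nuclear protein-coding promoters, taken as the 250 bases before the RefSeq gene start, 28.4% held TTGACC or TTGACT on either strand. The share was 27.0% for tested genes that were not called and 25.2% (123 of 488) for genes that fell at least 2-fold. It was 47.5% (650 of 1368) for genes that rose at least 2-fold and 67.0% (77 of 115) for genes that rose at least 16-fold. For genes raised at least 2-fold the GCC box (GCCGCC) was found in 3.22% against 1.87% of all promoters, the G-box (CACGTG) in 5.92% against 6.49%, and TGACG in 24.3% against 18.6%. TGACG differs from the W-box at the base after TGAC, so 1 stretch cannot be both, though their ends may overlap. These are counts of letters in a window and say nothing of binding.

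**Figure D3:**
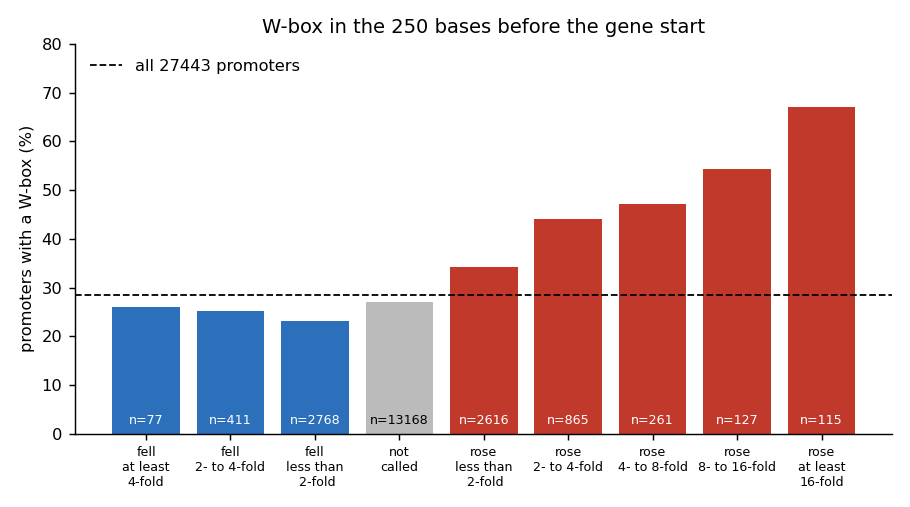
Share of promoters with a W-box (percent, vertical axis) by the size of the chitin response in mapkkk5 (horizontal axis), with the number of promoters in each bar. Blue bars fell, the grey bar was not called, red bars rose, and the dashed line is the share over all 27443 promoters. The share runs from 23.1% for falls of less than 2-fold to 67.0% for rises of at least 16-fold.

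The promoters of WRKY33 (chr2:16107985-16108234, plus strand) and CYP82C2 (chr4:15462100-15462349, plus strand) show the element in a raised factor and in a gene of the nitrile branch of tryptophan metabolism, with W-boxes in capitals. They begin at bases -96 and -32 for WRKY33 and -250, -143 and -96 for CYP82C2, counted from the gene start.
WRKY33: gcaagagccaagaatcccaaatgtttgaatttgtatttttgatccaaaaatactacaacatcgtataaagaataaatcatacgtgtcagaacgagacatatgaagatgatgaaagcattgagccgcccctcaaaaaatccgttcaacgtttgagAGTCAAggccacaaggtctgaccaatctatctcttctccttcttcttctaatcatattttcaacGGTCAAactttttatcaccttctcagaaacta
CYP82C2: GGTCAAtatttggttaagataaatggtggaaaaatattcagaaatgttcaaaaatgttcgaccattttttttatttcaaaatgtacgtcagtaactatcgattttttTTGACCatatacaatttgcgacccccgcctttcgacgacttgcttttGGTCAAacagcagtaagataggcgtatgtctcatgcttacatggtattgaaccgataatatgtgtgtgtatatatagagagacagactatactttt

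Tryptophan synthesis and the pathways that use tryptophan gave the strongest response of the lists. Of 25 tested genes 24 rose and 1 fell (96 and 4%, against 19.1 and 15.7% of all tested genes). At least 2-fold rises numbered 22, and the median was 2.69. Together these genes took 2320 to 2780 CPM in the 3 mock libraries and 11600 to 16200 CPM with chitin. The listed enzymes that lead to tryptophan all rose. ASA1, of anthranilate synthase, rose by 2.57 ± 0.12 and ASB1, its second subunit, by 2.69 ± 0.14. TRP1, the next enzyme, rose by 2.21 ± 0.15 and AT2G04400, an aldolase-type TIM barrel protein placed in the list, by 2.41 ± 0.14. TSA1, the alpha subunit of tryptophan synthase, went from 152, 164 and 171 CPM to 1099, 998 and 1302 CPM, a log2 fold change of 2.81 ± 0.14, and TSB1, a beta subunit, rose by 2.32 ± 0.16.

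Camalexin, the main phytoalexin of Arabidopsis, is made from tryptophan by way of indole-3-acetaldoxime. CYP79B2, which makes this oxime, rose by 2.01 ± 0.16 and its paralogue CYP79B3 by 0.75 ± 0.14. CYP71A13, which turns the oxime into a nitrile for camalexin, went from 1.11, 0.327 and 0.875 CPM in mock to 98.2, 69.7 and 109 CPM with chitin. The lowest chitin library was far above the highest mock library, with a log2 fold change of 6.90 ± 0.38 (edgeR adjusted p = 3.12e-08). Its neighbour and close copy CYP71A12, which feeds the 4-hydroxy-indole-carbonyl nitrile branch, rose by 6.72 ± 0.35. The last enzyme, PAD3, went from 13.5, 12.6 and 13.9 CPM to 247, 238 and 369 CPM and rose by 4.42 ± 0.20. In the nitrile branch AT1G26380, a FAD-binding berberine family protein, rose by 6.59 ± 0.34, and the hydroxylase CYP82C2 held 7, 0 and 1 reads in mock and 745, 692 and 1383 reads with chitin. CYP82C2 had the largest log2 fold change of the named genes with reads in both groups, at 8.36 ± 0.59.

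CYP71A12 and CYP71A13 are so alike that counting could divide or drop their reads, and their separate values are uncertain to that extent. Their promoters (chr2:13101372-13101621 and chr2:13111989-13112238, both minus strand) are shown because the pair rose alike without a W-box in this window. The last 100 bases agree at 85 positions, and capitals mark the longest shared stretch, of 23 bases, which begins at base -77 in both.
CYP71A12: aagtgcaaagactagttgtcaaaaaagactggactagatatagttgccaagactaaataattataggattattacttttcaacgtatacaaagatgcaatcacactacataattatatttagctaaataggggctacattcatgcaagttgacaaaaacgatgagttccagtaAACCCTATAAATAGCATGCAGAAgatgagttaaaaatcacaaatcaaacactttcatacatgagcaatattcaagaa
CYP71A13: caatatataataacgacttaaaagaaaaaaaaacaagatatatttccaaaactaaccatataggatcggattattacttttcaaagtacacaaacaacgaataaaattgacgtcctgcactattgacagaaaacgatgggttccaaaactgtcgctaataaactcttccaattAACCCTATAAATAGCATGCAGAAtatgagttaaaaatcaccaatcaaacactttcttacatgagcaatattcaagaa

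Indole glucosinolates, mustard oil precursors that are modified and cleaved during pathogen defence, followed the same direction. The regulators MYB51 and MYB122 rose by 3.42 ± 0.13 and 4.15 ± 0.22, whereas MYB34, the third member of this group of regulators, was the 1 gene of the list that fell (-0.87 ± 0.15). CYP83B1, the entry enzyme, rose by 2.02 ± 0.14. CYP81F2, which hydroxylates the indole ring for defence, went from 9.13, 6.76 and 5.43 CPM to 212, 222 and 284 CPM and rose by 5.07 ± 0.25. The methyltransferase IGMT2, which acts after CYP81F2, rose by 5.09 ± 0.27. PEN2, the atypical myrosinase that cleaves the product, rose by 0.74 ± 0.15 and PEN3, a transporter of the products, by 1.06 ± 0.22.

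**Figure D4:**
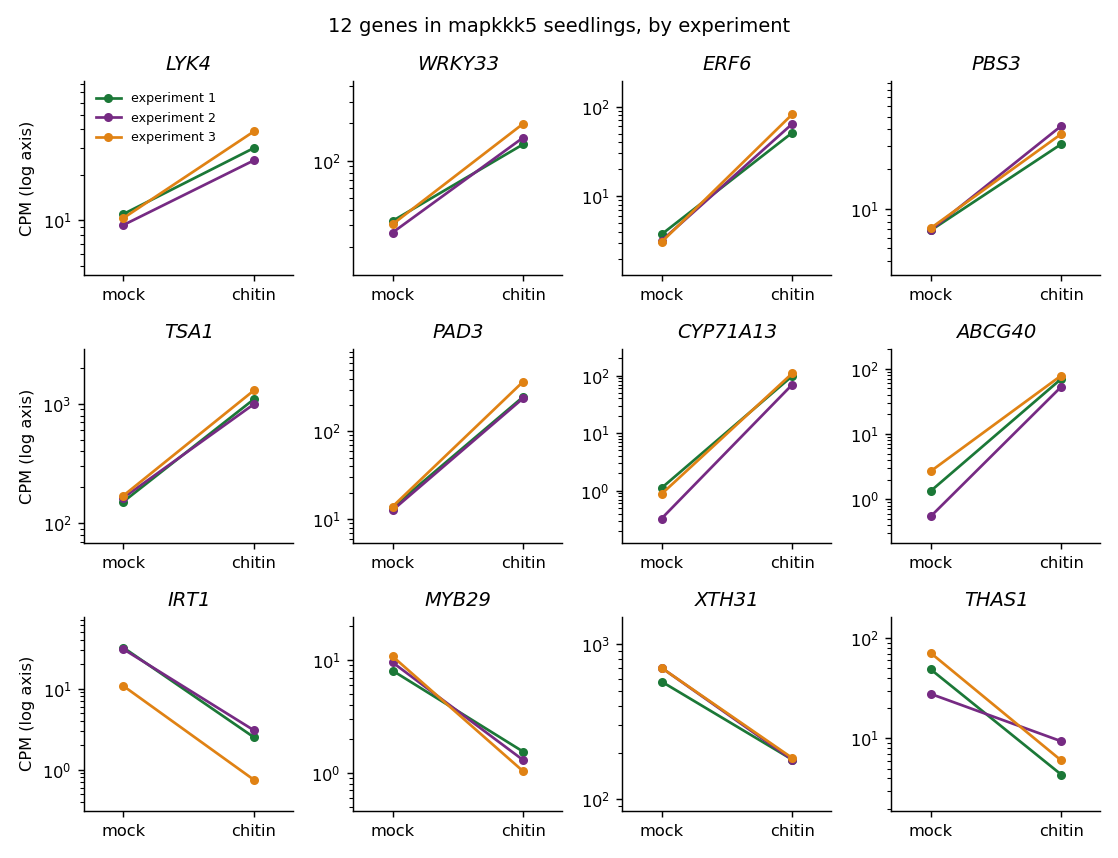
CPM of 12 genes in the 6 mapkkk5 libraries on a logarithmic vertical axis, with a scale of its own in each panel. Lines join the mock and chitin libraries of 1 experiment. The first 8 genes rose and the last 4, IRT1, MYB29, XTH31 and THAS1, fell in all 3 experiments.

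Aliphatic glucosinolates, made from methionine, went the other way. Of 17 tested genes 15 fell and 2 rose (88.2 and 11.8%, against 15.7 and 19.1% of all tested genes). The median was -1.13, and 10 of the falls were at least 2-fold. MYB29, a regulator of the pathway, went from 8.07, 9.55 and 10.8 CPM in mock to 1.54, 1.30 and 1.03 CPM with chitin, a log2 fold change of -2.86 ± 0.34 (edgeR adjusted p = 2.76e-05). Its paralogue MYB28 fell less (-0.48 ± 0.13). Chain elongation genes fell, with -1.16 ± 0.18 for BCAT4 and -1.13 ± 0.23 for MAM1, as did the core enzymes CYP79F1 (-2.28 ± 0.60) and CYP83A1 (-1.25 ± 0.22). The 2 members that rose were SUR1 (0.73 ± 0.12) and SOT17 (0.72 ± 0.21), and SUR1 is known to serve the indole branch too. Without experiment 1 the falls numbered 8.

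Salicylic acid, the hormone of defence against biotrophs, and N-hydroxypipecolic acid, the signal of systemic resistance, were represented by 23 tested genes. Of these, 22 rose and 0 fell (95.7 and 0%, against 19.1 and 15.7% of all tested genes), with a median of 1.56. ICS1 (listed as EDS16), the enzyme that commits chorismate to salicylic acid, went from 22.9, 21.5 and 19.3 CPM to 48.5, 67.9 and 59.0 CPM and rose by 1.46 ± 0.18. Its transporter EDS5 rose by 1.14 ± 0.15. PBS3, the enzyme that joins isochorismate to glutamate, went from 6.85, 6.87 and 7.12 CPM to 31.0, 42.6 and 37.0 CPM and rose by 2.41 ± 0.18, while EPS1, which can act after it, was not called (0.40 ± 0.19, adjusted p = 0.125, and 0.0474 under the block of experiments). The transcription factors of the pathway, SARD1 and CBP60G, rose by 1.82 ± 0.11 and 2.23 ± 0.16. On the pipecolic acid side ALD1 rose by 3.38 ± 0.54 and FMO1, the final enzyme, by 3.09 ± 0.24. Genes that dispose of the hormones rose as well, among them UGT76B1 (2.91 ± 0.19), a glucosyltransferase, and the hydroxylases DMR6 (1.56 ± 0.28) and DLO1 (3.13 ± 0.22). The receptors NPR1, NPR3 and NPR4 rose by 0.88 ± 0.10, 1.50 ± 0.12 and 0.87 ± 0.10. PR1, the classical output gene, rose by 1.12 ± 0.37 with log2 ratios of 2.02, 0.09 and 1.68, and PR2 (listed as BGL2) and PR5 too had their smallest ratio in experiment 2.

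Ethylene synthesis and ERF factors rose in 19 of 22 cases and fell in 1, with a median of 1.16. These shares, 86.4 and 4.55%, stand against 19.1 and 15.7% of all tested genes. ACS6, an ACC synthase stabilised by MPK3 and MPK6, went from 11.2, 12.1 and 11.4 CPM to 60.2, 71.8 and 87.0 CPM, a log2 fold change of 2.66 ± 0.15. Another ACC synthase, ACS7, was the member that fell (-1.92 ± 0.24). ERF6, a factor that MPK3 and MPK6 phosphorylate, went from 3.73, 3.16 and 3.06 CPM to 51.0, 64.1 and 82.0 CPM and rose by 4.30 ± 0.23. ERF105 rose by 3.19 ± 0.34, ERF5 by 2.55 ± 0.18, ERF1A (listed as ERF-1) by 2.43 ± 0.14 and ERF104, a substrate of MPK6, by 2.06 ± 0.19. ORA59, which joins ethylene and jasmonate signals, rose by 1.05 ± 0.22.

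Jasmonate genes responded in part. Of 21 tested genes 8 rose and 0 fell, with a median of 0.62 and 13 not called. These shares, 38.1 and 0%, stand against 19.1 and 15.7% of all tested genes. JAZ1, a repressor of the pathway, rose by 0.99 ± 0.28 and CYP94C1, which oxidises the active hormone, by 1.28 ± 0.29. The marker VSP2 had log2 ratios of 1.38, 0.10 and -0.95 in the 3 experiments, and LOX2, an early enzyme, of -0.03, -0.96 and -0.61, and neither was called. With the experiments as a block LOX2 fell (adjusted p = 0.0169) and 9 members rose. Without experiment 2, 5 members rose.

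Among chitinases and genes of wall defence, 9 of 13 tested members rose and 1 fell, with a median of 1.31. These shares, 69.2 and 7.69%, stand against 19.1 and 15.7% of all tested genes. CHI (AT2G43570) went from 7.52, 10.8 and 7.87 CPM to 119.9, 130.1 and 162 CPM, a log2 fold change of 3.97 ± 0.20. CHIA, an acidic chitinase, rose by 3.29 ± 0.30, EP3, another chitinase, by 1.86 ± 0.23, and PGIP1, an inhibitor of fungal polygalacturonases, by 3.10 ± 0.24. The member that fell was POM1 (-0.57 ± 0.14), a chitinase-like protein of cellulose deposition in growing cells. PMR4 (listed as GSL05), the synthase of pathogen-induced callose, was not called (0.17 ± 0.10).

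Glutathione transferases and ABCG transporters rose in 15 of 22 cases and fell in 1, with a median of 1.17, and differed widely among themselves. The shares of 68.2 and 4.55% stand against 19.1 and 15.7% of all tested genes. GSTF7 went from 160.4, 141 and 127 CPM to 2164, 2250.4 and 3006 CPM, a log2 fold change of 4.11 ± 0.16, and GSTF6 rose by 3.27 ± 0.18. GSTF3 rose by 6.71 ± 0.32, GSTU12 by 6.07 ± 0.37 and GSTU4 by 4.46 ± 0.18, whereas GSTU19 (0.26 ± 0.15) and GSTU25 (-0.36 ± 0.22) were not called and GSTU5 fell (-0.50 ± 0.11). Members of this family lie in arrays of close copies, so reads may have been divided between them. ABCG40, a transporter of the pleiotropic drug resistance type, went from 1.34, 0.546 and 2.69 CPM to 70.2, 53.1 and 78.8 CPM and rose by 5.50 ± 0.35, while ABCG34 (0.18 ± 0.23) and ABCG37 (-0.21 ± 0.21) were not called.

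Genes of secretion and protein folding in the endoplasmic reticulum rose in 10 of 14 cases and fell in 0, with a median of 0.73. The shares of 71.4 and 0% stand against 19.1 and 15.7% of all tested genes. The syntaxin PEN1 (listed as SYP121), which focuses secretion at sites of fungal entry, rose by 1.10 ± 0.11, its relative SYP122 by 2.33 ± 0.17 and their partner SNAP33 by 1.24 ± 0.13. The exocyst subunit EXO70B2 rose by 1.31 ± 0.16. Among folding factors CRT3, a calreticulin needed for EFR, rose by 1.09 ± 0.14, and the general chaperones BIP1 (0.12 ± 0.12) and BIP2 (0.046 ± 0.13) were not called.

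In phenylpropanoid and monolignol synthesis 10 of 17 tested genes rose and 0 fell, with a median of 0.48, and only CCR2 and CAD5 rose at least 2-fold. The shares of 58.8 and 0% stand against 19.1 and 15.7% of all tested genes. CCR2, a cinnamoyl-CoA reductase linked to defence, went from 4.84, 3.76 and 3.62 CPM to 25.8, 25.8 and 34.8 CPM and rose by 2.82 ± 0.22, and its paralogue CCR1, which serves lignin in development, was not called (0.17 ± 0.12). CAD5, an alcohol dehydrogenase of lignin synthesis, rose by 1.29 ± 0.14. The entry enzyme PAL1 was not called (0.41 ± 0.19, but adjusted p = 0.00336 under the block of experiments) and PAL2 rose by 0.67 ± 0.15. Without the chitin library of experiment 3 the rises of the list numbered 5. Flavonoid synthesis, which shares the early steps, fell in 5 of 10 cases and rose in 0, with a median of -0.78. Its lowered share, 50%, stands against 15.7% of all tested genes. Chalcone synthase, TT4, went from 348, 428 and 571 CPM to 241, 212 and 254 CPM and fell (-0.93 ± 0.19), and the flavonol regulator MYB111 fell (-1.79 ± 0.30), whereas MYB12 was at 0.00 ± 0.13. With the experiments as a block 9 of the 10 flavonoid genes fell, and without experiment 3 the falls numbered 3.

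Iron acquisition included some of the largest falls. Of 22 tested genes 7 fell and 2 rose, with a median of -0.40. The lowered share, 31.8%, stands against 15.7% of all tested genes, and the raised share, 9.09%, against 19.1%. IRT1, the root iron importer, went from 32.0, 30.6 and 10.7 CPM in mock to 2.50, 3.05 and 0.746 CPM with chitin, a log2 fold change of -3.54 ± 0.50 (edgeR adjusted p = 1.28e-04). The levels of experiment 3 were the lowest in both groups, but the ratio was alike in all 3 experiments. FRO2, the root ferric reductase that supplies IRT1, fell (-2.66 ± 0.35), as did the nicotianamine synthases NAS1 (-2.55 ± 0.34) and NAS2 (-2.82 ± 0.28). Of their known regulators FIT passed with the experiments as a block alone (adjusted p = 0.0326) and the others did not pass, with -0.36 ± 0.19 for FIT (listed as FRU), -0.43 ± 0.34 for BHLH38 and 0.81 ± 0.47 for BHLH39. In coumarin synthesis, whose products mobilise iron, F6'H1 rose (1.66 ± 0.24) while CYP82C4 fell (-3.76 ± 0.65) from a mean of 2.07 CPM. Of the ferritins FER3 fell (-0.75 ± 0.11) and FER1 was not called (0.15 ± 0.30).

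The 7 tested genes of the root triterpene clusters all fell (against 15.7% of all tested genes), each by at least 2-fold, with a median of -1.96. THAS1, the thalianol synthase, went from 48.8, 27.8 and 71.0 CPM to 4.36, 9.37 and 6.02 CPM, a log2 fold change of -2.90 ± 0.53 (edgeR adjusted p = 8.63e-04). Its cluster partners CYP708A2 and CYP705A5 fell as well (-1.96 ± 0.44 and -1.99 ± 0.38), as did MRN1, the marneral synthase (-3.23 ± 0.75). All 7 fell least in experiment 2, with median log2 ratios of -2.09, -1.15 and -2.37. Without experiment 1, 3 of the 7 were called. Of 7 markers of root and root hair 0 rose and 1 fell (14.3%, against 15.7% of all tested genes). Their median was 0.04, none was at 0, and with the experiments as a block 1 rose and 2 fell. Their summed level was 3060 to 4800 CPM in mock and 1420 to 2150 CPM with chitin, of which PYK10, a root myrosinase of endoplasmic reticulum bodies, held the most and fell by 1.19 ± 0.26 on the log2 scale. The endodermal markers CASP1 (0.14 ± 0.15) and SCR (0.10 ± 0.10) were not called, and the part of tissue makeup in the falls of root genes was not tested.

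Growth genes fell in the majority. Of 22 tested genes of wall expansion and growth 13 fell and 1 rose (15 and 2 with the experiments as a block), with a median of -0.78. The shares of 59.1 and 4.55% stand against 15.7 and 19.1% of all tested genes. XTH31, a wall-loosening xyloglucan enzyme, went from 574, 705 and 704 CPM to 180.0, 179.6 and 184 CPM, a log2 fold change of -1.87 ± 0.14. GASA5, a gibberellin-responsive peptide, fell from 45.5, 54.4 and 72.1 CPM to 6.01, 6.88 and 10.5 CPM, with a log2 fold change of -2.88 ± 0.24. The expansins EXPA3 (listed as EXP3), EXPA4 and EXPA15 fell (-1.41 ± 0.15, -1.32 ± 0.21 and -1.58 ± 0.30), while EXPA1 rose (0.60 ± 0.12). Over all genes whose RefSeq symbol begins with FLA, the fasciclin-like arabinogalactan proteins, 9 of 14 fell and 0 rose, and of the genes named XTH 11 of 26 fell and 1 rose. In the brassinosteroid and auxin list 4 of 16 rose and 2 fell (5 with the experiments as a block, 4 with upper-quartile scaling), with a median of 0.04, and the 2 shares lay near the 19.1 and 15.7% of all tested genes.

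A minority of photosynthesis genes fell. Of 21 tested genes 6 fell and 0 rose (28.6 and 0%, against 15.7 and 19.1% of all tested genes), with a median of -0.40. RBCS1B, of the Rubisco small subunit, fell the most (-1.07 ± 0.21), although its copies share sequence. With the experiments as a block 15 fell and 1 rose, and without the chitin library of either experiment 1 or experiment 2 the falls numbered 3. Mitotic genes fell in 4 of 8 cases (7 with the block), a share of 50% against 15.7% of all tested genes, with a median of -0.39. Clock genes rose in 2 of 12 cases (7 with the block), with a median of 0.32. The share of raised clock genes was below the 19.1% of all tested genes, and with the block, which called 24.5% of all tested genes as raised and 22.7% as lowered, above it. Leaving out single libraries lowered the mitotic count to as few as 1 and the clock count to 1. Markers of other cell types were mostly not called. Of the tested markers 0 of 5 for xylem (1 with the block or with DESeq2), 1 of 3 for phloem (SUC2, 0.39 ± 0.12) and 1 of 7 for the stomatal lineage (EPF2, -0.69 ± 0.20) passed, each lost without some single library. Among 6 heat shock genes 1 rose (HSP90-1, listed as HSP90.1, 0.88 ± 0.26). The raised share was 33.3% for phloem and 16.7% for heat shock, against 19.1% of all tested genes. The lowered share of the stomatal lineage was 14.3%, against 15.7%.

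Beyond the lists, the largest rises among well-expressed genes (mean log2 CPM 1 or more) with a symbol and groups that did not overlap had products of several kinds. PXMT1, a methyltransferase family member, went from 0.111, 0.546 and 0.312 CPM to 41.7, 72.3 and 60.0 CPM and rose by 7.45 ± 0.41. DIR5, a dirigent-like protein, went from 4.73, 5.02 and 2.62 CPM to 168, 186 and 174 CPM, a log2 fold change of 5.40 ± 0.33. CCOAMT, a caffeoyl-CoA methyltransferase, rose by 7.41 ± 0.46 and PHT3;2, a phosphate transporter, by 6.06 ± 0.50. Other rises were those of PER4, a peroxidase (5.92 ± 0.33), DMP1, a membrane protein (5.79 ± 0.34), NAC042, a NAC factor known to activate camalexin genes (5.62 ± 0.35), and WAKL10, a wall-associated kinase-like gene (5.69 ± 0.24). By the same limits, the largest falls beyond the lists were those of MLP328, a major latex protein relative (-2.85 ± 0.50), RL1, a small MYB-like factor (-2.65 ± 0.30), and TBL26, of a family that acetylates wall polymers (-2.35 ± 0.74).

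Some genes had no read in any of the 3 mock libraries. Of 8671 such genes 65 had a read in every chitin library, 12 rose by the test and 8 of these reached a mean of 1 CPM. CYP82C3, a relative of CYP82C2, held 50, 66 and 85 reads with chitin, which makes it at least 65.4-fold higher (3 reads over the mock group as the limit, 0.0574 CPM). AT3G24510, a defensin-like gene, held 59, 53 and 88 reads and was at least 64.9-fold higher. The MIR159c locus held 21, 21 and 28 reads and was at least 22.7-fold higher. These genes were absent from the mock reads at this depth, not shown to be silent.

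Raised genes had a raised neighbour more often than tested genes did in general. Neighbours were the nearest tested protein-coding genes, so untested genes may lie between them. Of the 1368 nuclear protein-coding genes raised at least 2-fold, 389 (28.4%) had a tested neighbour that was also so raised, against 12.7% of all tested genes with such a neighbour. Runs of 2 or more numbered 166, of 3 or more 37, and the longest held 6 genes. One run of 6 on chromosome 5, AT5G39090 to AT5G39150, holds GLP6 and its germin-like relatives, and GLP6 rose by 5.80 ± 0.47 on the log2 scale. On chromosome 1 the 4 genes IGMT1, IGMT3, IGMT2 and IGMT4 rose by 3.78, 3.67, 5.09 and 1.71. Some families, picked after their values were seen, rose in many members: of 39 tested cysteine-rich receptor-like kinases (CRK) 26 rose and 0 fell, of 46 receptor-like proteins (RLP) 25 rose and 2 fell, and of 17 glutamate receptor-like channels (GLR) 8 rose and 0 fell. Over all tested genes 19.1% rose and 15.7% fell. Other families were mixed, such as ABCG, in which 5 of 37 rose and 4 fell. Of the lowered genes 58 of 488 (11.9%) had a tested neighbour that was also so lowered, against 4.7% of all tested genes, and 1 of the runs was the thalianol cluster with THAS1. Many neighbours are tandem copies, whose reads may have been divided.

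The size of the response varied between the 3 experiments. Over all 20994 tested genes the log2 ratios had a Pearson r of 0.73 (experiments 1 and 2), 0.808 (1 and 3) and 0.828 (2 and 3). Genes raised or lowered at least 2-fold were chosen from these same libraries, so their shared sign was in large part built in. Their median log2 ratio was 1.50, 1.58 and 1.80 where raised and -1.26, -1.30 and -1.38 where lowered. Experiment 3 gave the largest ratio for 59.3% of the raised and 39.3% of the lowered genes. Pattern receptors and danger peptides were raised least in experiment 1 in all 12 of their raised members, while aliphatic glucosinolate genes fell least in experiment 3 in 12 of 15.

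**Figure D5:**
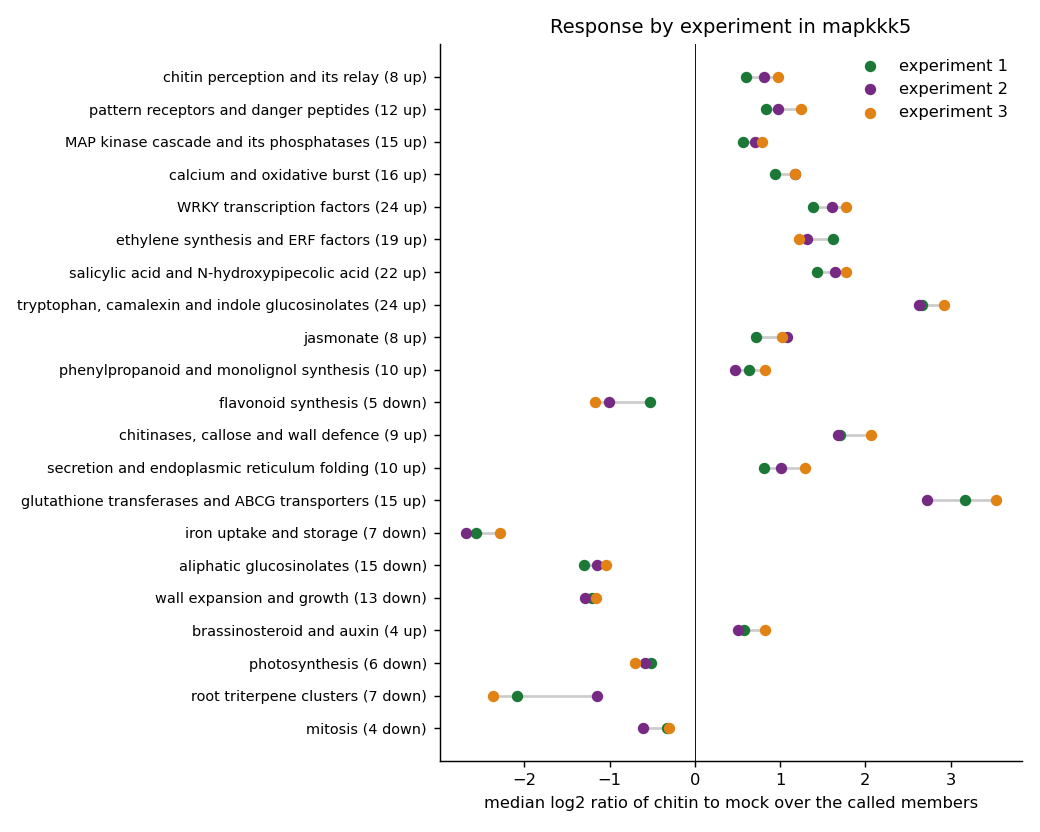
Median log2 ratio of chitin to mock (horizontal axis) over the called members of each list (vertical axis, with their number and direction), in experiments 1, 2 and 3. The root triterpene clusters spread the most, from -2.37 to -1.15, and most raised lists lie highest in experiment 3.

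Against Col, the response of mapkkk5 gave no gene whose difference passed the threshold by edgeR. With that test 0 of 20994 genes (0%) had an adjusted p below 0.05 for mapkkk5 minus Col. An unadjusted p below 0.05 was found for 275 genes, and for 653 with the experiments as a block. Both numbers are below a share of 0.05 of the tested genes, which a well-calibrated test gives where no gene differs. The model without the block counts differences between experiments as spread. DESeq2 called 6 genes, which were AT5G25260, PBS3, ACS2, ICS1 (listed as EDS16), AT5G52760 and MAPKKK5. The smallest p by edgeR was that of AT5G25260, a gene of the SPFH membrane protein family, which rose by 1.82 ± 0.19 in mapkkk5 and 3.77 ± 0.20 in Col (edgeR adjusted p of the difference = 0.0899). PBS3 rose by 2.41 ± 0.18 in mapkkk5 and 4.03 ± 0.18 in Col (edgeR adjusted p of the difference = 0.168), and ACS2, an ACC synthase, by 1.27 ± 0.22 and 3.11 ± 0.22 (0.369). The adjusted p of the difference with DESeq2 was 1.84e-07 for AT5G25260, 3.6e-05 for PBS3 and 0.0490 for ACS2. ICS1 rose by 1.46 ± 0.18 in mapkkk5 and 2.63 ± 0.18 in Col (adjusted p of the difference = 0.932 by edgeR and 0.0472 with DESeq2), and AT5G52760, of a family of copper transport proteins, by 1.31 ± 0.16 and 2.48 ± 0.16 (0.762 and 0.0284). With the experiments as a block the differences of AT5G25260 (adjusted p = 0.0130) and PBS3 (0.0106) passed. MAPKKK5 itself rose by 2.49 ± 0.27 in mapkkk5 and 0.70 ± 0.23 in Col, with an adjusted p of the difference of 0.866 by edgeR and 0.00330 with DESeq2. Without the mapkkk5 chitin library of experiment 3 the difference was 2.08 with an edgeR adjusted p of 0.00883. A p that misses the threshold does not show that the genotypes respond alike.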

How the data were processed

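RNA was extracted from whole seedlings, and libraries were made from 1 µg of total RNA with poly(A) enrichment and a directional kit, per the labels' protocols. The authors deposited 1 table of raw read counts per gene for 12 libraries. Per the submitters' processing notes, the tools were CASAVA 1.8.2, cutadapt 1.5, TopHat2 2.0.10, HTSeq 0.6.1, with the build TAIR10. No label states the strand and overlap settings used in counting, so values of overlapping, antisense and near-identical genes are uncertain. Of 32678 locus identifiers, 7389 had no read, and 31912 matched RefSeq's annotation of TAIR10.1, which supplied symbols, positions and sequences.

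Analysis used edgeR 4.0.16 in R 4.3.3. The function filterByExpr kept 20994 genes, libraries were scaled by TMM (factors 0.971 to 1.029 in the 6 mapkkk5 libraries), and a quasi-likelihood model with the 4 groups was fitted to the 12 libraries (8 residual degrees of freedom). A gene was called where its p, adjusted by Benjamini-Hochberg over all tested genes, was below 0.05. The SE is the absolute log2 fold change divided by the square root of the F statistic. CPM use the scaled library sizes, and per-experiment log2 ratios a prior count of 2. On simulated data the fit of chitin in mapkkk5 recovered 97% of 2-fold and 100% of 4-fold changes, with 13 false calls among 20832 genes. The simulation gave all genes a common spread and had no effect of experiment. It changed 100 genes of each size, none of them of low level, so these rates need not hold for the data.

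Replicate numbers 1 to 3 occur in every group, and per the design text there were 3 independent experiments. Deviations of same-numbered mapkkk5 libraries from their group means correlated at 0.156 to 0.509, and those of other pairs at -0.442 to 0.143. Pair 1 (0.156) was thus hardly above mock 2 with chitin 1 (0.143). The numbers were taken to pair the libraries. No replicates were merged, since the counts of each pair departed from sampling noise (chi-square of 10.73 to 26.49 for each degree of freedom). P-values rest on these 3 experiments.

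The genes and the 29 lists (442 genes, 435 tested) were chosen with earlier results of these data known, so counts over lists are descriptions. Named genes were the largest called changes with a symbol, mean log2 CPM 1 or more and groups apart, MAPKKK5, genes without reads in mock, the smallest p of the difference, the largest spread between experiments, and members of the lists with the smallest p or the extreme fold change, with all members of 5 lists. List members beyond these, gene families and neighbour runs were picked after their values were seen. DESeq2 1.42.0, other scalings and filters, the replicate block, the 6 libraries alone, and leaving out libraries or experiments were alternatives.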

Additional observations from a re-analysis of the deposited data

How the results depend on the processing

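No gene called for chitin in mapkkk5 was called in the opposite direction under any alternative. The balance of calls turned with upper-quartile scaling, which gave more falls than rises, and 18 named genes, none of them called and all with a log2 fold change of at most 0.081, changed sign with it. For chitin in mapkkk5, leaving out 1 of the 6 libraries gave 3387 to 3895 rises and 2429 to 2931 falls against 4019 and 3289, and leaving out experiment 1, 2 or 3 gave 2908, 2924 and 2835 rises and 1997, 1913 and 1927 falls. The replicate block gave 5135 rises and 4761 falls, with 4019 of the rises and 3288 of the falls shared. Of 465 named genes tested with it, the block lost no call and added 48, and its counts for lists that moved by over 1.5 times stand beside them. DESeq2 gave 4029 and 3457, no filter 3941 and 3147, and upper-quartile scaling 3347 and 4355. The difference of responses, with 0 genes by edgeR, gave 1 gene without the filter (AT5G25260), 6 with DESeq2, 2 with the replicate block, 1 without the mapkkk5 chitin library of experiment 3 and 1 without experiment 3, which was MAPKKK5 in both of these cases; the causes were not tested. Single libraries left out lost 18 to 33 of the named calls. The log2 fold change of MAPKKK5 kept its side of the threshold in every alternative. At these depths a gene without a read is limited to 0.159 to 0.187 CPM per library, for counting error only.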
